A study of Mus musculus with 4 samples.

Results

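The genes described here are those of tumor necrosis factor (TNF), the lymphotoxins and the receptors and first signalling proteins they use: Tnf, Lta, Ltb, Tnfrsf1a, Tnfrsf1b, Ltbr, Adam17, Tradd, Traf2 and Ripk1. They were chosen by symbol, and all 10 were present among the 32285 genes of the mouse reference. Their transcripts were counted by cell lineage in 4 single-cell RNA-seq libraries, from synovium (the tissue that lines the joint) and lung of TNF- and TNF+ mice. TNF+ mice (hTNFtg in the labels) carried a single copy of the human TNF gene, and TNF- mice were their littermates without it. All were female, on a C57BL/6 background and 4 months old. Each library was made from live-sorted cells pooled from 5 to 10 mice for synovium or 3 to 5 mice for lung, so every group was 1 library. With no replicate libraries the spread between animals is unknown and no test between the genotypes was possible. Every interval given covers counting error at 95% only, and each comparison is one of the libraries. The human transgene was not in the reference, so the Tnf counts are those assigned to the mouse gene. Reads from the human transcript that align to mouse Tnf cannot be told apart from mouse transcripts in these counts.

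TNF and the lymphotoxins are made mainly by leukocytes. TNF is held at the cell surface until the protease ADAM17 sheds it, and both TNF and the secreted lymphotoxin alpha bind the receptors TNFR1, encoded by Tnfrsf1a, and TNFR2, encoded by Tnfrsf1b. Lymphotoxin beta anchors lymphotoxin alpha in the membrane, and that complex signals through the lymphotoxin beta receptor, encoded by Ltbr, which builds lymphoid tissue. TRADD, TRAF2 and RIPK1 gather at the activated TNFR1 and pass its signal to NF-kB or to cell death, and excess TNF drives inflammatory arthritis.

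The ligand genes lay side by side. In GRCm38, Ltb was at chr17:35194439-35196320 on the plus strand, Tnf at chr17:35199381-35202007 on the minus strand and Lta at chr17:35203165-35205351 on the minus strand. A gap of 3060 bases separated Ltb from Tnf and one of 1157 bases separated Tnf from Lta, so that the locus spanned 10913 bases. Of the receptor genes, Ltbr at chr6:125306571-125313885 on the minus strand and Tnfrsf1a at chr6:125349362-125362484 on the plus strand were 35476 bases apart, and Tnfrsf1b was at chr4:145213463-145246870. Adam17 was at chr12:21323509-21373632, Tradd at chr8:105258286-105264609, Traf2 at chr2:25517982-25546940 and Ripk1 at chr13:34002363-34037147. All 10 were annotated as protein-coding in GENCODE.

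The sequences just before the starts of Ltb and Tnf are shown because these neighbours, 3060 bases apart, differed in the cells in which they were counted. Both are from RefSeq in GRCm38.p6 and are read 5′ to 3′ on the strand of the gene. The Ltb sequence is chr17:35194257-35194438, plus strand, cut at the start of the GENCODE gene, and the Tnf sequence is chr17:35202008-35202257, minus strand. Capitals mark a match to the kB consensus in Ltb and TATAAA in Tnf.
Ltb: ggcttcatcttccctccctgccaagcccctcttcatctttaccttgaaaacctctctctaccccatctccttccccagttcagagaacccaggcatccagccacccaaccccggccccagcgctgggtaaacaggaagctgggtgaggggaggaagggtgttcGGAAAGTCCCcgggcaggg
Tnf: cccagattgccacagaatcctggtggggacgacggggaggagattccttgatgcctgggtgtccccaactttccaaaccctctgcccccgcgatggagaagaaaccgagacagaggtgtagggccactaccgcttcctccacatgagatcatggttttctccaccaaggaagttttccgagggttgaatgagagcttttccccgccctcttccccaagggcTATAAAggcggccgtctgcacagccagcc
The kB consensus, searched on both strands, matched the 250 bases before the start of Ltb and Tnfrsf1b among the 9 members with a RefSeq promoter entry, and 9.72% of all 32851 such windows. TATAAA, searched on the gene's strand, was found before Tnf and Lta and in 7.59% of the windows. These are matches of letters and not measured binding sites.

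The TNF- synovium, TNF+ synovium, TNF- lung and TNF+ lung libraries held 90427403, 48454234, 96120328 and 155989523 UMIs (unique molecular identifiers, each the tag of 1 captured transcript). Limits on detected genes and mitochondrial UMIs kept 6200 of 6899, 3152 of 4246, 6998 of 8555 and 9174 of 11243 barcodes, with medians of 7137 to 12492 UMIs per kept cell. The TNF+ synovium stood apart in that 17.6% of its barcodes exceeded the mitochondrial limit, against 1.41% to 3.78% in the other libraries. Any 2 libraries shared 5 to 21 barcodes. Cells were clustered within each tissue and clusters were named from marker genes, and a lineage was compared where both libraries held at least 50 of its cells, which left 8 lineages in synovium and 12 in lung. The make-up of the libraries differed: TNF- and TNF+ synovium held 2949 and 143 fibroblasts and 218 and 964 macrophages or monocytes, and TNF- and TNF+ lung held 659 and 4523 macrophages or monocytes. Endothelial cells, fibroblasts and mural cells of TNF+ lung were shallow: their median cell held 752, 963 and 654 UMIs, where the TNF- median cell held 6476, 2562 and 8426.5. Levels are given as UMIs per 1000000 UMIs of the lineage (CPM), and a ratio is the log2 of TNF+ over TNF- CPM. A gene is called higher or lower where that ratio reached 1 or -1, a 2-fold difference, with at least 20 UMIs over both libraries.

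Over whole libraries, Tnf and Tnfrsf1b were higher in both TNF+ tissues. In synovium Tnf was at 16.8 CPM (TNF-) and 75.1 CPM (TNF+) (log2 ratio 2.16, interval 2.07 to 2.26), and Tnfrsf1b was at 36.8 and 125 CPM (1.77, 1.70 to 1.84). Lta was lower, but on 26 and 4 UMIs, with an interval from -3.47 to 0.03. Those were the 2 members called higher and the 1 called lower in synovium, where 11.8% of all genes tested were higher and 21.9% lower. In lung Tnf was at 35.2 and 113 CPM (1.68, 1.61 to 1.76), Tnfrsf1b at 82.1 and 295 CPM (1.84, 1.80 to 1.89) and Lta at 3.23 and 7.11 CPM (1.14, 0.89 to 1.39). These 3 members were called higher and 0 lower, beside 5.79% and 25.5% of all genes. The median ratio of the 10 members was 0.09 in synovium and 0.61 in lung, and that of all genes was -0.17 and -0.32. In sums over a whole library, fewer cells of a type and less RNA per cell cannot be told apart, so each member is described within lineages.

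Tnf in synovium was counted in myeloid cells, T cells and endothelium. In macrophages or monocytes it was at 173 CPM (TNF-) and 104 CPM (TNF+) (502 and 1482 UMIs, ratio -0.73, -0.88 to -0.58). In dendritic cells it was at 60.9 and 22.2 CPM (-1.45, -2.05 to -0.91), and in T cells at 49.7 and 27.1 CPM (-0.88, -1.62 to -0.18). The levels in these leukocytes were thus below those of the TNF- library, while the whole-library level was higher. The macrophages of the 2 genotypes sat in different clusters. In TNF+ synovium 717 of 964 were in a cluster led by Cxcl3, Cxcl2 and Trem2 that held 6 TNF- cells, and Tnf there was at 107 CPM. In the cluster led by Cd300e and Treml4, with 138 and 216 cells, Tnf was at 59.7 and 55.3 CPM (-0.11, -0.53 to 0.30). In the cluster led by Ccl12, Ccl24 and Cd209f, with 74 and 31 cells, it was at 378 and 277 CPM. Immediate-early and heat shock genes, which tissue digestion can induce, moved alongside. Their 16 genes summed to 10482 and 6240 CPM in synovial macrophages, 10189 and 5107 CPM in dendritic cells and 8859 and 5770 CPM in T cells. In the synovial T cells the 24 macrophage markers, summed, were also lower, at 1132 and 493 CPM, with 7 and 13 of them at 0, while in dendritic cells they were at 4449 and 5124 CPM. The part of the stress genes and of macrophage transcripts in the Tnf values was not tested.

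Synovial endothelium was the lineage in which Tnf was higher in the TNF+ library. It was at 19.5 CPM (TNF-) and 161 CPM (TNF+) (60 and 788 UMIs, ratio 3.05, 2.67 to 3.45), or 0.102 and 1.57 UMIs per cell. For comparison, TNF+ synovial macrophages held 1.54 UMIs per cell. Both main endothelial clusters showed the difference. In the cluster led by Timp4, Aqp1 and Gpihbp1, with 490 and 261 cells, Tnf was at 23.7 and 180 CPM (2.92, 2.53 to 3.34). In the cluster led by Cytl1, Gkn3 and Stmn2, with 82 and 213 cells, it was at 2.1 and 156 CPM on 1 and 331 UMIs. At least 1 Tnf UMI was seen in 45 of 590 TNF- cells (7.63%, 5.62 to 10.1, exact binomial) and 212 of 501 TNF+ cells (42.3%, 37.9 to 46.8), whose median depths were 4769.5 and 8441 UMIs. Thinned to 1000 UMIs per cell, leaving out 1 and 2 shallower cells, the shares were 1.87% and 10.8%. Thinned fibroblasts, which should lack the transcript, gave 0.102% (TNF-) and 0 of 143 cells (TNF+). At that depth the count allows up to 2.55% of TNF+ fibroblasts with a Tnf UMI, which is no limit on the share of cells expressing the gene. No TNF+ cell held more than 20 Tnf UMIs, and the 10 highest cells together held 20.3% of them.

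The TNF+ synovial endothelial cells with a Tnf UMI carried the endothelial genes at levels near those of the cells without one, and transcripts of leukocyte genes went both ways. Pecam1, an endothelial junction protein, was at 1195 CPM in the 212 cells with a Tnf UMI and 1337 CPM in the 289 without, and Cdh5, the vascular cadherin, was at 1200 and 1140 CPM. Ptprc, the pan-leukocyte CD45, was at 2.4 and 11.8 CPM, and Lyz2, the myeloid lysozyme, at 142 and 140 CPM. Csf1r, a macrophage growth factor receptor, was at 12 and 6.73 CPM and was seen in 8.96% and 4.5% of the cells, and Ltb was at 8.39 and 5.89 CPM. In TNF- endothelium Lyz2 was at 33.6 CPM in the 45 cells with a Tnf UMI and 11.4 CPM in the 545 without. Transcripts used as markers of macrophages reached 0.425% of the per-cell macrophage level in TNF+ endothelium and 0.0849% in TNF- endothelium. Summed, the 24 macrophage markers were at 193 CPM (TNF-) and 403 CPM (TNF+), with 6 and 4 of them at 0, and their part in the Tnf values was not tested. Cxcl2, a neutrophil chemokine, was at 814 CPM in the cells with a Tnf UMI and 228 CPM in those without, and Icam1, an adhesion molecule, at 583 and 389 CPM. Vcam1, another adhesion molecule, went the other way, at 116 and 170 CPM. The cells with a Tnf UMI were also deeper, at a median of 11824 against 7176 UMIs, and the part of depth in these values was not tested. The stress genes summed to 21290 and 18187 CPM in TNF- and TNF+ endothelium.

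In lung, Tnf was higher in TNF+ neutrophils, NK or innate lymphoid cells, B cells and T cells. Neutrophils were at 53.4 and 265 CPM (81 and 309 UMIs, ratio 2.31, 1.96 to 2.68), and thinned to 1000 UMIs 5.42% and 24.9% of them held a Tnf UMI. NK or innate lymphoid cells were at 20.3 and 94.4 CPM (2.21, 1.78 to 2.67), and B or plasma cells at 23.8 and 72.1 CPM (1.60, 1.39 to 1.81). T cells were at 70.1 and 143 CPM (1.03, 0.90 to 1.17), a ratio that lay just under 2-fold with no filter on cells (0.99), with doublets removed (0.97) and with median-of-ratios scaling (0.97). Both clusters of NK or innate lymphoid cells differed in the same direction. Tnf was at 8.65 and 67.4 CPM in the cluster led by Klra4 and Ncr1 and at 42.4 and 138 CPM in the one led by Gm4208 and Klrc1. The 20 T cell markers summed to 4522 and 4655 CPM in this lineage, with 0 of them at 0. Their part in its Tnf values was not tested. Among T cells, the cluster led by Foxp3, the regulatory T cell factor, went from 188 to 772 cells and had the higher level, 142 and 182 CPM, while the cluster led by Dapl1 and Lef1 was at 36.7 and 68.9 CPM. Macrophage transcripts were also higher in each of these TNF+ lineages. The 24 markers summed to 2324 and 8095 CPM in neutrophils, which themselves express some of them, to 1271 and 2416 CPM in NK or innate lymphoid cells, to 263 and 1642 CPM in B or plasma cells and to 403 and 1603 CPM in T cells, with 0 to 5 of them at 0. Markers used to measure free RNA stood per cell at 33.5% of the macrophage level in TNF+ neutrophils, 7.59% in NK, 7.88% in B and 7.42% in T cells, against 6.89%, 0.945%, 1.10% and 1.13% in TNF- lung. Tnf itself was at 1.78, 0.874, 0.596 and 1.38 UMIs per cell in these 4 TNF+ lineages and at 1.3 in TNF+ macrophages. With doublets removed the ratios were 2.25, 2.27, 1.60 and 0.97. The part of macrophage transcripts in the Tnf values was not tested.

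Lung macrophages or monocytes held the most Tnf UMIs, with levels within 2-fold of each other. They were at 102 and 140 CPM (720 and 5866 UMIs, ratio 0.46, 0.35 to 0.57), and dendritic cells were at 101 and 57.3 CPM (-0.82, -1.12 to -0.52). Macrophage markers summed to 2336 and 6275 CPM in these dendritic cells, and their part in the Tnf value was not tested. Mast cells or basophils were at 83.7 and 90.8 CPM. The macrophage clusters went both ways. The cluster led by St18, Cxcl13 and C1qc was at 137 and 57 CPM (-1.26, -1.61 to -0.90), and the one led by A530013C23Rik was at 120 and 252 CPM (1.06, 0.82 to 1.31). The cluster led by Hsd17b2, Ccdc192 and Cd300e held 2497 TNF+ but 28 TNF- cells and was at 154 CPM in the TNF+ library. Lung endothelium was the other lineage called higher for Tnf, at 1.64 and 9.34 CPM (ratio 2.51) on 22 and 14 UMIs. Its thinned shares of 0.109% and 0.654% rested on 2 cells and 1 cell. Macrophage markers summed to 430 and 2352 CPM in these endothelial cells, with 1 of 24 at 0 in each library, and their part in the value was not tested.

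**Figure D1:**
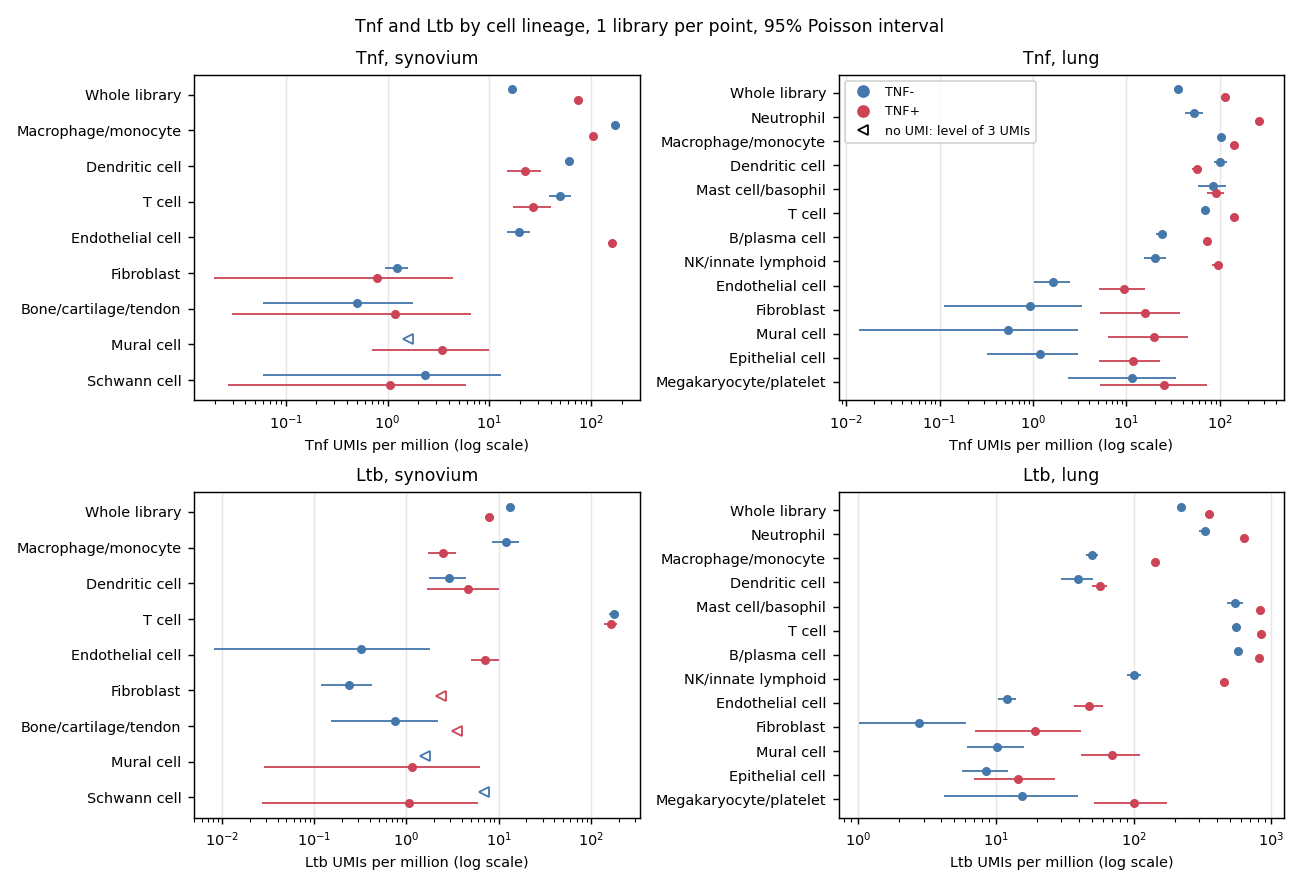
Levels of the ligand genes Tnf and Ltb in CPM (log axis) by cell lineage in synovium and lung, 1 library per point, with 95% Poisson intervals. Open triangles mark the level of 3 UMIs where none was counted. Synovial endothelium is where Tnf is far higher in TNF+ (161 against 19.5 CPM), and in lung the TNF+ points of neutrophils, NK or innate lymphoid, B and T cells lie above those of TNF-.

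Ordered by level over the lineages with at least 50 cells in both libraries, Tnf in TNF- synovium was highest in macrophages (173 CPM), followed by dendritic cells (60.9 CPM) and T cells (49.7 CPM), whose intervals overlapped. In TNF+ synovium it was highest in endothelium, at 161 CPM, above macrophages at 104 CPM, with T cells at 27.1 CPM and dendritic cells at 22.2 CPM overlapping in their intervals. Synovial neutrophils, left out of the order with 27 (TNF-) and 23 (TNF+) cells, were at 131 CPM (87.8 to 188) and 180.1 CPM (110.0 to 278), intervals that overlapped those of the leading lineage in each library. In TNF- lung macrophages (102 CPM) and dendritic cells (101 CPM) headed the order and did not differ beyond counting error. In TNF+ lung neutrophils came first at 265 CPM, followed by T cells (143 CPM) and macrophages (140 CPM), which lay within counting error of each other.

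Lta, which encodes lymphotoxin alpha, was counted mainly in lymphocytes. In lung T cells it was at 8.36 CPM (TNF-) and 17.8 CPM (TNF+) (70 and 237 UMIs, ratio 1.09, with 0.70 as the lower bound), and in B or plasma cells at 9.27 and 25.4 CPM (91 and 303 UMIs, 1.46, 1.11 to 1.81). With no filter on cells the B cell ratio was 0.92. B and T cells together gave most Lta UMIs of both lung libraries, with shares of 52.3% and 40.2% in TNF- and 50.5% and 39.5% in TNF+ lung. Mast cells or basophils gave 4.02% (7 UMIs) in TNF- and 2.83% (17 UMIs) in TNF+ lung, while holding 0.799% and 1.23% of all UMIs. T cell markers summed to 3361 and 3778 CPM in that lineage, and their part in its Lta counts was not tested. The B cells of the genotypes lay in different clusters. A cluster led by Agbl1 and Pax5 held 1221 TNF- and 68 TNF+ cells, with Lta at 9.65 and 19 CPM, and a cluster led by Fcrl5 and Cr2 held 49 and 1332. NK or innate lymphoid cells had 1 and 16 Lta UMIs, under the minimum of 20. In synovium Lta was counted 26 times in the TNF- library, 10 of them in T cells, and 4 times in the TNF+ library, so no lineage could be compared.

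Ltb, the membrane anchor of lymphotoxin alpha, was counted in T, B, NK and myeloid cells of lung. NK or innate lymphoid cells were at 101 CPM (TNF-) and 453 CPM (TNF+) (268 and 1100 UMIs, ratio 2.17, 1.97 to 2.36), and the thinned share of cells with an Ltb UMI was 8.22% and 31.4%. The cluster led by Klra4 and Ncr1 was at 40.4 and 305 CPM and that led by Gm4208 and Klrc1 at 215 and 693 CPM. T cell markers summed to 4522 and 4655 CPM in this lineage, and their part in its Ltb values was not tested. T cells were at 550 and 835 CPM (0.60, 0.55 to 0.65), B or plasma cells at 573 and 815 CPM (0.51, 0.46 to 0.56) and neutrophils at 328 and 633 CPM (0.95, 0.78 to 1.12). Those lineages were higher in TNF+ by less than 2-fold, and in the B cell cluster led by Agbl1 and Pax5 the levels were 580 and 573 CPM (-0.02, -0.19 to 0.15).

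Macrophages or monocytes differed in Ltb in opposite directions in the 2 tissues. In lung they were at 50.1 and 143 CPM (353 and 5952 UMIs, ratio 1.51, 1.35 to 1.67), and 5230 of the TNF+ UMIs lay in the cluster led by Hsd17b2, Ccdc192 and Cd300e. Within the cluster led by F13a1 the levels were 11.5 and 46.9 CPM (2.03, 1.42 to 2.70), while the cluster led by A530013C23Rik was at 119 and 128 CPM (0.10, -0.19 to 0.40). In synovium macrophages were at 12.1 and 2.46 CPM on 35 UMIs in each library (-2.29, -3.01 to -1.58), and at 18.4 and 8.83 CPM within the cluster led by Cd300e and Treml4. Markers of T cells in the macrophage lineage summed to 29.1 and 76.9 CPM in lung and to 5.53 and 4.72 CPM in synovium, and their part in the Ltb values was not tested.

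Synovial Ltb came from few cells. T cells were at 180 and 164 CPM (-0.14, -0.44 to 0.17). In the TNF- library 584 of 1015 Ltb UMIs, or 57.5%, lay in an unnamed cluster of 138 cells led by Il5, Dach2 and Csf2, in which the TNF+ library had 18 cells. Ltb was at 330 and 160 CPM there. Synovial endothelium had 1 and 35 Ltb UMIs, at 0.325 and 7.17 CPM (4.46, 1.89 to 9.81). In lung, TNF+ endothelial cells were at 47.4 CPM against 12.1 CPM (1.97, 1.54 to 2.38; 0.93 with no filter on cells) and mural cells at 70.2 against 10.3 CPM on 18 and 19 UMIs. These are the shallow TNF+ lineages, in which 98.7% of the TNF+ endothelial cells without a Tnf UMI held a Lyz2 UMI.

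Tnfrsf1a, the gene of the receptor that most cells carry, was counted in all compared lineages. Synovial macrophages were at 215 CPM (TNF-) and 100 CPM (TNF+) (622 and 1424 UMIs, ratio -1.10, -1.24 to -0.96), a ratio of -0.88 with median-of-ratios scaling and -0.96 with cells weighted equally. Within the cluster led by Cd300e and Treml4 the levels were 270 and 171 CPM (-0.66, -0.87 to -0.44), and in that led by Cxcl3, Cxcl2 and Trem2 the TNF+ level was 88.5 CPM. Synovial T cells were at 51.2 and 24.7 CPM on 72 and 21 UMIs (-1.05, -1.82 to -0.33), and the ratio was -0.84 under stricter limits on cells, -0.92 with doublets removed and -0.67 with cells weighted equally. Macrophage markers in these T cells summed to 1132 and 493 CPM, with 7 and 13 of 24 at 0, and their part was not tested.

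Stromal Tnfrsf1a differed between the tissues. Synovial fibroblasts were at 89.9 and 176 CPM (4154 and 225 UMIs, ratio 0.97, 0.77 to 1.16), and bone, cartilage or tendon cells at 85 and 139 CPM (0.71, 0.40 to 1.02). Mural cells led by Myh11 and Acta2 were at 52.3 and 111 CPM (1.08, 0.48 to 1.71). Lung fibroblasts were at 131 and 63.9 CPM on 282 and 20 UMIs (-1.03, -1.76 to -0.38), with ratios of -0.27 with no filter on cells and -0.97 with doublets removed, and lung endothelium was at 193 and 104 CPM (-0.89, -1.13 to -0.66). Macrophage markers in lung fibroblasts summed to 501 and 2671 CPM, with 5 and 4 of 24 at 0, and their part was not tested. Lung neutrophils were at 209 and 146 CPM and macrophages at 128 and 115 CPM. B or plasma cells were the lung lineage called higher, at 3.57 and 7.21 CPM on 35 and 86 UMIs (1.02, with 0.43 as the lower bound). That ratio was 0.16 under stricter limits on cells, 0.12 with doublets removed and 0.47 with cells weighted equally. T cells were at 11.9 and 19.2 CPM (0.69, 0.35 to 1.04). Macrophage markers summed to 263 and 1642 CPM in the lung B cells and to 403 and 1603 CPM in the lung T cells. Their part in these Tnfrsf1a values was not tested.

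Tnfrsf1b, the gene of the receptor found mainly on leukocytes and endothelium, was within 2-fold in each synovial lineage that could be compared. Macrophages were at 246 CPM (TNF-) and 237 CPM (TNF+) (712 and 3370 UMIs, ratio -0.05, -0.17 to 0.07), T cells at 193 and 173 CPM, and dendritic cells at 91 and 96.6 CPM. The whole-library ratio of 1.77 thus stood beside lineage ratios from -0.15 to 0.47. Macrophages gave 25.4% of the Tnfrsf1b UMIs of TNF- and 81.6% of those of TNF+ synovium. Of the clusters with at least 50 cells on both sides, the fibroblasts led by Gdf10, C4b and Meox1 were higher, at 15.2 and 33.3 CPM on 200 and 22 UMIs.

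In lung, Tnfrsf1b in macrophages was at 450 and 529 CPM (3170 and 22076 UMIs, ratio 0.23, 0.18 to 0.29). T cells were at 34.7 and 105 CPM (291 and 1402 UMIs, 1.60, 1.42 to 1.79), and the cluster led by Foxp3 was at 78.4 and 129 CPM (0.72, 0.46 to 0.99). B or plasma cells were at 17.7 and 42.5 CPM (1.26, 1.01 to 1.52), with ratios of 0.73 under stricter limits on cells and 0.59 with doublets removed. Macrophage markers moved with these values: in lung T cells they summed to 403 and 1603 CPM, with 0 and 1 of 24 at 0. Endothelium at 6.1 and 25.4 CPM, mural cells at 9.21 and 70.2 CPM and epithelium at 6.77 and 23.3 CPM were also higher, on 38, 18 and 16 TNF+ UMIs. None of the 12 lung clusters tested with at least 50 cells on both sides passed 2-fold for Tnfrsf1b. Over all gene and cluster pairs in lung, 5.59% were higher and 7.71% lower. The part of macrophage transcripts in the lymphocyte and stromal values was not tested.

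Ltbr, the receptor of the membrane lymphotoxin complex, was a stromal and myeloid transcript and was at or below 3.3 CPM in T, B and NK cells of both lung libraries. Synovial macrophages were at 40.1 and 23.4 CPM (-0.77, -1.08 to -0.46), endothelium at 38.4 and 29.5 CPM, and fibroblasts at 32.7 and 27.4 CPM. In lung, endothelium was at 54.9 and 40 CPM, epithelium at 50.3 and 45.2 CPM and macrophages at 45.6 and 39.1 CPM. All of these were within 2-fold. Lung T cells had 7 and 29 UMIs (1.38, 0.16 to 2.82) and B or plasma cells 9 and 34 (1.64, 0.55 to 2.88). The T cell ratio was 0.90 with doublets removed and 0.97 at clustering resolution 0.4, and the B cell ratio 0.91 under stricter limits. Macrophage markers summed to 403 and 1603 CPM in these T cells and to 263 and 1642 CPM in these B cells. Their part in the Ltbr counts was not tested.

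**Figure D2:**
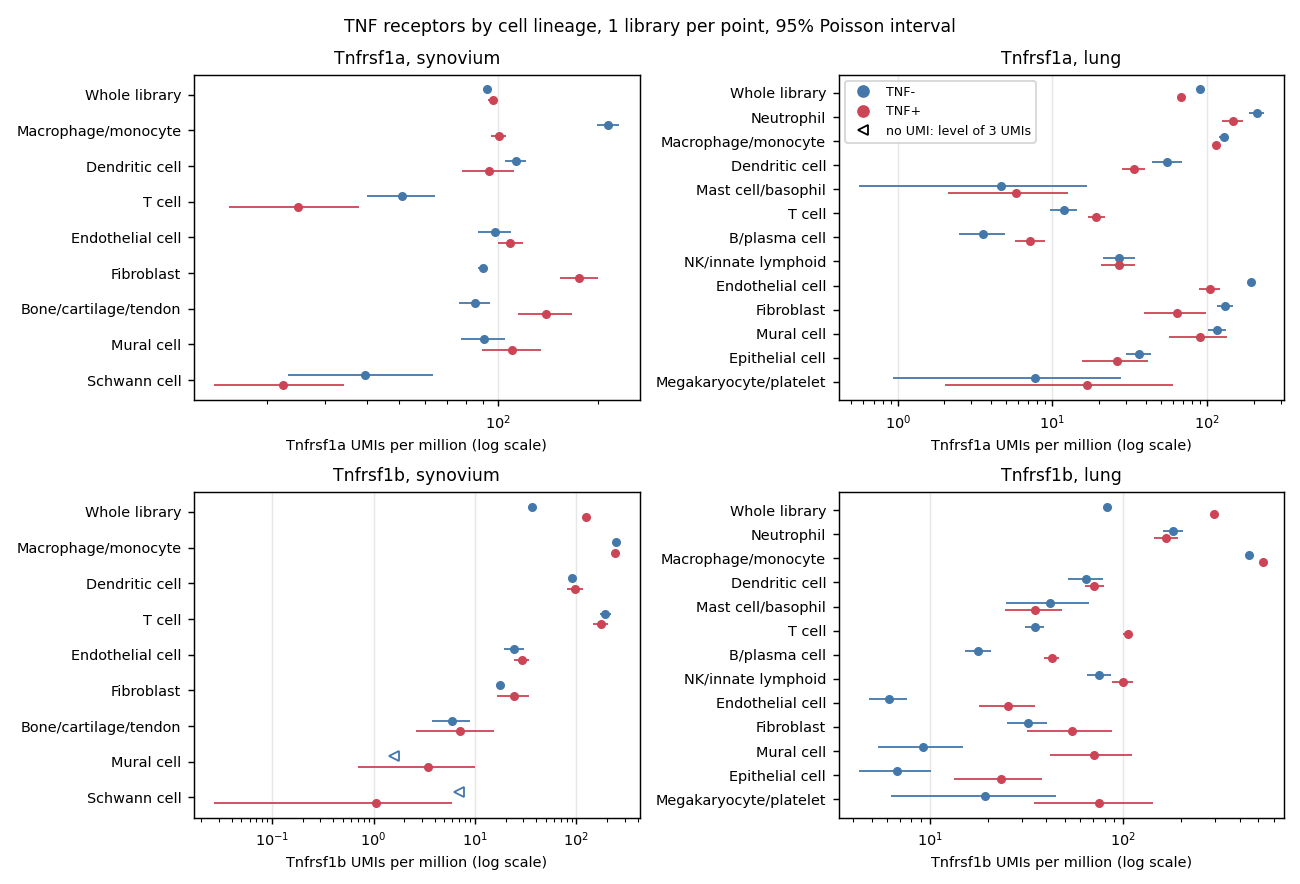
Levels of the TNF receptor genes Tnfrsf1a and Tnfrsf1b in CPM (log axis) by cell lineage, 1 library per point, with 95% Poisson intervals. Tnfrsf1b overlaps between the genotypes in synovial macrophages (246 and 237 CPM) although the whole-library points lie apart, and Tnfrsf1a is lower in TNF+ synovial macrophages (215 and 100 CPM).

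Adam17, the sheddase of TNF and of its receptors, was within 2-fold in the whole libraries, at 69.3 and 96.4 CPM in synovium and 74.4 and 143 CPM in lung (ratio 0.95, with 0.89 as the lower bound). Lung macrophages were at 136 and 209 CPM (957 and 8740 UMIs, 0.62, 0.53 to 0.72), dendritic cells at 73.8 and 131 CPM (0.82, 0.52 to 1.14) and neutrophils at 66.6 and 115 CPM (0.79, 0.41 to 1.18). NK or innate lymphoid cells went the other way, at 119 and 74.2 CPM (-0.69, -0.96 to -0.42). Macrophage markers summed to 2336 and 6275 CPM in lung dendritic cells and to 2324 and 8095 CPM in lung neutrophils. Their part in the Adam17 values was not tested. Synovial macrophages were at 127 and 144 CPM (0.18, 0.02 to 0.34). Schwann cells were lower, at 105 and 47.9 CPM on 45 UMIs in each library (-1.13, -1.76 to -0.50), with ratios of -0.96 with no filter on cells and -0.63 with each library clustered alone. In the clusters with at least 50 cells on both sides, 0 of 10 synovial and 0 of 13 lung tests of Adam17 passed 2-fold. Over all gene and cluster pairs, 6.97% were higher and 12.6% lower in synovium, and 5.59% and 7.71% in lung.

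The adaptor and kinase genes were within 2-fold in most lineages. Tradd, the adaptor of the TNFR1 death domain, was at 13.1 and 16.3 CPM in synovial macrophages and 25.3 and 27.9 CPM in lung macrophages. It was lower in synovial fibroblasts, at 11.8 and 3.91 CPM on 545 and 5 UMIs (-1.59, -3.22 to -0.36), and in bone, cartilage or tendon cells on 41 and 3 UMIs (-1.52, -3.86 to 0.13). The fibroblast ratio was -0.22 with no filter on cells, -0.65 at clustering resolution 0.4 and -0.94 with each library clustered alone, and the bone cell ratio was -0.36 with each library clustered alone. In lung its ratios ran from -0.46 in mast cells or basophils to 0.72 in epithelium, with 0 of 11 lineages past 2-fold. Over all gene and lineage pairs in lung, 6.93% were higher and 9.36% lower.

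Traf2, a ubiquitin ligase adaptor shared by the TNF receptors, was in lung macrophages at 15 CPM (TNF-) and 30.5 CPM (TNF+) (106 and 1275 UMIs, ratio 1.02, 0.73 to 1.32; 0.49 with no filter on cells). The cluster led by A530013C23Rik gave 13.9 and 28.2 CPM (1.02, 0.27 to 1.77). Lung fibroblasts, at 14.4 and 35.1 CPM, and mural cells, at 14.6 and 54.6 CPM, were higher on 11 and 14 TNF+ UMIs, and the fibroblast ratio was 0.50 with cells weighted equally. Synovial macrophages were at 15.2 and 16.2 CPM (0.09, -0.38 to 0.59).

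Ripk1, the kinase at the branch between NF-kB signalling and cell death, was at 177 and 103 CPM over the synovial libraries (-0.78, -0.84 to -0.73). Within lineages, fibroblasts were at 197 and 238 CPM (0.27, 0.10 to 0.43), macrophages at 97.1 and 86.4 CPM (-0.17, -0.36 to 0.02), endothelium at 213 and 143 CPM (-0.57, -0.72 to -0.41) and mural cells at 129 and 229 CPM (0.82, 0.55 to 1.10). The lower whole-library level was thus not shared by the fibroblasts, which gave 67.7% of TNF- and 8.95% of TNF+ Ripk1 UMIs. Lung epithelium was at 30.6 and 61.2 CPM, just past 2-fold (0.45 to 1.53), with a log2 ratio between 0.03 and 0.97 under 5 other settings. The other lung lineages tested lay between -0.79 in mast cells or basophils and 0.27 in fibroblasts.

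Counted over members and lineages, 60 pairs could be compared in synovium, of which 2 were higher, 7 lower and 51 within 2-fold. Of all gene and lineage pairs in synovium, 7.33% were higher and 14.2% lower. In lung 23 of 96 pairs were higher, 1 lower and 72 within 2-fold, beside 6.93% and 9.36% of all pairs. Clusters with at least 50 cells on both sides gave 5 higher, 6 lower and 59 within 2-fold of 70 in synovium, and 10 higher, 2 lower and 96 within 2-fold of 108 in lung. Of all gene and cluster pairs 6.97% were higher and 12.6% lower in synovium, and 5.59% and 7.71% in lung.

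**Figure D3:**
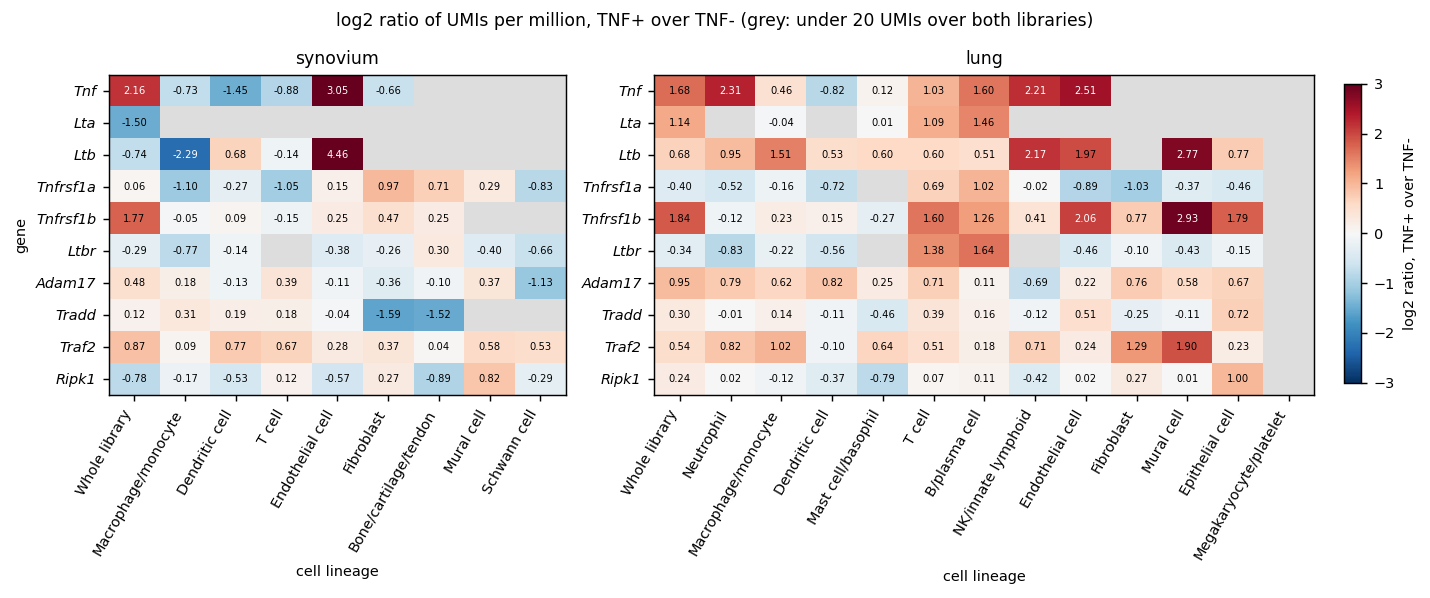
The log2 ratio of CPM, TNF+ over TNF-, for the 10 genes (rows) in the whole library and each compared lineage (columns) of synovium and lung, with red for higher and blue for lower in TNF+ and grey under 20 UMIs. Tnf in synovial endothelium (3.05) stands out against lower values in synovial leukocytes, and the lung T cell and B cell columns are mostly red.

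The lineages that gave the transcripts also differed. Of the Tnf UMIs, macrophages gave 39.3% and dendritic cells 33.1% in TNF- synovium, and macrophages 59.7% and endothelium 31.8% in TNF+ synovium. In lung, macrophages, T cells and B cells gave 38%, 31.0% and 12.4% in the TNF- and 61.4%, 19.9% and 8.99% in the TNF+ library. Ltb in lung was mostly from B cells (47.4%) and T cells (38.8%) in TNF- and from T cells (37.2%), B cells (32.5%) and macrophages (19.9%) in TNF+. Fibroblasts gave 58.9% of Tnfrsf1a UMIs in TNF- synovium, and macrophages 44.8% in TNF+ synovium. In lung, endothelium gave 53.7% of them in TNF- and macrophages 83.3% in TNF+. Macrophages held 3.8% of all UMIs in TNF- and 43.0% in TNF+ synovium, and 13.1% and 49.5% in lung.

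**Figure D4:**
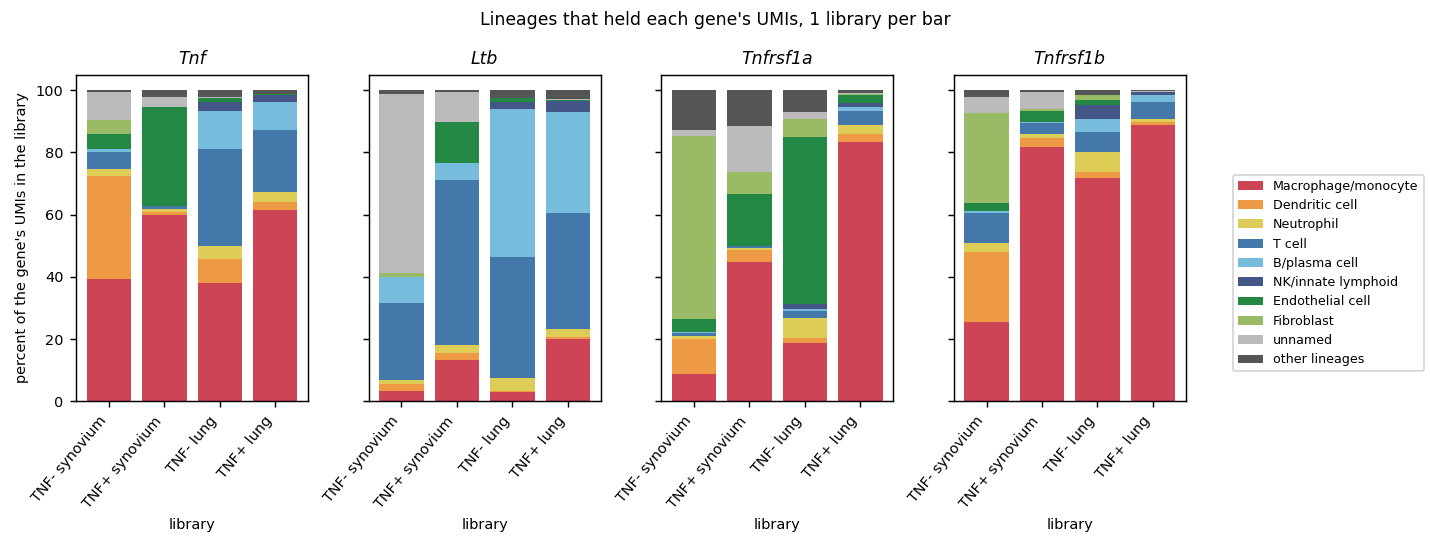
Share of each gene's UMIs (percent) by cell lineage in the 4 libraries, as stacked bars that sum to 100. Macrophages take the largest share of Tnfrsf1b in both TNF+ libraries (81.6% in synovium and 88.7% in lung), and endothelium gives 31.8% of Tnf UMIs in TNF+ synovium.

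The whole-library ratios were split by holding either the lineage make-up or the levels at those of the other library. For Tnf in synovium, TNF- levels at the TNF+ make-up gave a log2 ratio of 2.38 and TNF+ levels at the TNF- make-up gave -0.15, beside the observed 2.16. For Tnfrsf1b in synovium these were 1.78 and 0.21, beside 1.77. Ltb in synovium gave 1.52 and -1.45, beside -0.74. In lung, Tnf gave 1.04 from make-up and 1.05 from levels, beside 1.68, and Tnfrsf1b 1.54 and 0.52, beside 1.84. Lta in lung gave -0.05 from make-up and 1.35 from levels, and Ltb -0.08 and 0.72. These values are arithmetic on the lineage sums and name no cause. For synovial Tnf the -0.15 from levels adds a higher level in endothelium to lower ones in macrophages, dendritic cells and T cells, and 717 of 964 TNF+ macrophages were in a cluster with 6 TNF- cells. Unnamed cells entered as a class of their own. In synovium they held 57.7% (TNF-) and 9.51% (TNF+) of Ltb UMIs, and 4.59% and 16.3% of all UMIs. Nearly all of that TNF- Ltb lay in the cluster led by Il5, Dach2 and Csf2, which had few TNF+ cells. The split therefore cannot separate make-up from levels for synovial Ltb.

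**Figure D5:**
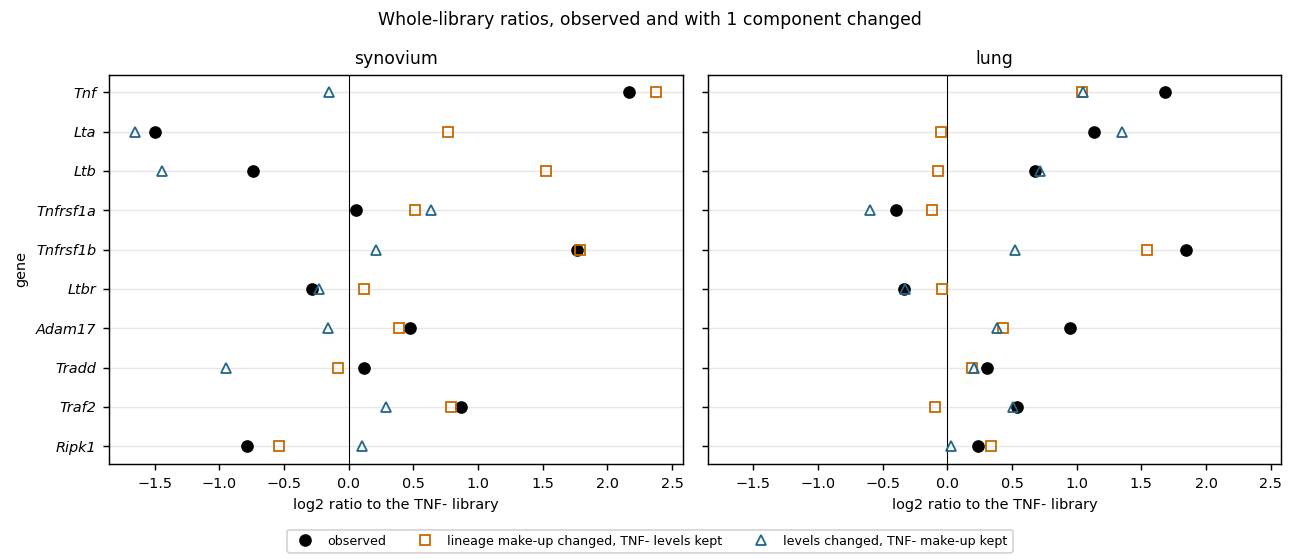
Whole-library log2 ratios, TNF+ over TNF-, of the 10 genes in synovium and lung as observed and with either the lineage make-up or the levels changed alone. For synovial Tnf the make-up point (2.38) lies beside the observed one (2.16) and the levels point near 0, and for lung Lta the levels point (1.35) lies beside the observed one (1.14).

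Other genes of the pathway, 39 that process TNF, build its receptor complexes or control its mRNA, and 20 targets of NF-kB were counted in the same way. Over whole libraries 6 of 39 pathway genes were higher and 1 lower in synovium and 5 and 3 in lung, and 5 and 0 of 20 targets in synovium and 8 and 3 in lung. All genes were higher and lower at 11.8% and 21.9% in synovium and at 5.79% and 25.5% in lung. In synovial endothelium 12 of 19 targets tested were higher and 0 lower, and 5 and 1 of 37 pathway genes, where 9.1% of all genes were higher and 9.23% lower. The median ratio was 1.11 for the targets and 0.07 for the pathway genes, against -0.08 for all genes. The macrophage marker sums of this endothelium were 193 and 403 CPM, and their part in the counts was not tested. Tnip1, which restrains NF-kB with A20, was at 18.9 and 104 CPM (2.46), and Tnfaip3, which encodes A20, at 25 and 97.7 CPM (1.96). The chemokine genes Cxcl2, at 14.0 and 528 CPM (5.24), and Ccl2, at 4.23 and 47.5 CPM (3.49), were higher too. Zfp36, whose product degrades Tnf mRNA, was lower at 1408 and 602 CPM (-1.23), as it was in synovial fibroblasts (-1.48) and T cells (-1.45). In this endothelium 2 of the 16 stress genes were lower and 1 higher. In synovial fibroblasts 3 were lower and 1 higher, and in synovial T cells 8 were lower and 0 higher. Their bearing on the Zfp36 values was not tested.

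In synovial macrophages 0 of 37 pathway genes were higher and 8 lower, and of 20 targets 4 were higher and 6 lower, where 8.72% of all genes were higher and 19.7% lower. The share of pathway genes that were lower was near that of all genes. The median ratios were -0.47 and -0.13, against -0.22 for all genes. Timp3, an inhibitor of ADAM17, was at 19.7 and 4.51 CPM (-2.13) on 57 and 64 UMIs. The 24 endothelial markers summed to 371 and 124 CPM in these macrophages, and the part of stromal transcripts in the Timp3 value was not tested. Map3k14, the kinase of the noncanonical NF-kB pathway, was at 151 and 41.5 CPM (-1.87). Ptgs2, the inducible cyclooxygenase, was higher at 28.3 and 207 CPM (2.87), and Sod2, a mitochondrial dismutase, at 179 and 808 CPM (2.17). The monocyte chemokine Ccl2, at 739 and 96.3 CPM (-2.94), and Irf1, an interferon regulatory factor, at 133 and 22.9 CPM (-2.54), were lower. Of the 16 stress genes 11 were also lower, Egr1 the most at 343 and 19.9 CPM (-4.11).

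In synovial fibroblasts 7 of 20 targets were higher and 1 lower, and 1 and 3 of 39 pathway genes, beside 7.56% and 11.7% of all genes. Ccl2 was at 153 and 1023 CPM (2.74), Cxcl2 at 16.2 and 82.9 CPM (2.35) and Zfp36 at 1129 and 406 CPM (-1.48). In synovial T cells 0 of 16 targets were higher and 8 lower, and 2 and 3 of 34 pathway genes, beside 5.74% and 7.99%. Birc2, a ubiquitin ligase of the TNFR1 complex, was at 74.6 and 170 CPM (1.18). Il1b, a myeloid cytokine, was at 274 and 3.53 CPM (-6.28) on 385 and 3 UMIs, in cells whose macrophage marker sum also differed.

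In lung macrophages 8 of 20 targets were higher and 2 lower, and 4 and 4 of 39 pathway genes, beside 4.91% and 14.2% of all genes. Tnip1 was at 77.9 and 308 CPM (1.98) and Tnfaip3 at 66.6 and 233 CPM (1.81). Nfkbia, which encodes the inhibitor of NF-kB, was at 340 and 1048 CPM (1.63), and the interferon-induced chemokine Cxcl10 at 101 and 37.7 CPM (-1.43). Targets were higher in 9 of 17, 7 of 17 and 5 of 14 tests in lung T, B and NK cells and lower in 0 of each. Pathway genes numbered 1 higher and 1 lower of 38 in T cells, 1 and 1 of 36 in B cells and 2 and 0 of 36 in NK cells. All genes were higher and lower at 7.7% and 7.01% in T cells, 5.82% and 7.64% in B cells and 4.03% and 5.8% in NK cells. The targets include genes that macrophages express, and the macrophage marker sums of these lymphocytes were higher alongside, at 403 and 1603 CPM in T, 263 and 1642 CPM in B and 1271 and 2416 CPM in NK cells. Cxcl2 in T cells rested on 10 and 121 UMIs. The part of macrophage transcripts in these counts was not tested. Tnfsf14, the ligand LIGHT that also binds the lymphotoxin beta receptor, was at 6.21 and 14.9 CPM in T cells (1.26, 0.81 to 1.73).

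Lung endothelium and fibroblasts, both shallow in TNF+, had 10 of 18 and 9 of 14 targets higher and 1 and 0 lower. Of pathway genes 6 of 37 and 8 of 33 were higher and 2 and 2 lower. All genes were higher at 9.98% and 10.4% and lower at 9.13% and 11.1%. The macrophage markers summed to 430 and 2352 CPM in this endothelium and to 501 and 2671 CPM in these fibroblasts, and their part in the counts was not tested. Tnfaip3 in endothelium was at 18.2 and 96.8 CPM (2.41) and Vcam1, an adhesion molecule, at 45.7 and 210 CPM (2.20). Timp3 in fibroblasts was at 1650 and 511 CPM (-1.69) and Ccl2 at 0.926 and 415 CPM on 2 and 130 UMIs.

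The genes with profiles most like each member were sought over 40 sums, the 20 compared lineages in both genotypes, among 13159 genes with Pearson's r of log2(CPM + 1). The sums share libraries, so r is a description. The highest r were Slfn2 for Tnf (0.91), Edaradd for Lta (0.89), Cd69, an early lymphocyte activation antigen, for Ltb (0.93) and Cyba, a subunit of the phagocyte oxidase, for Tnfrsf1b (0.85). App was most like Ltbr (0.95) and Ifitm3 most like Tnfrsf1a (0.82), for which Ltbr, its neighbour on chromosome 6, was the third (0.78). For Adam17, Tradd, Traf2 and Ripk1 they were Sppl2a (0.77), Fcf1 (0.92), Akr1b10 (0.78) and Ccnl1 (0.92).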

How the data were processed

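Cells of synovium and lung were captured with a 10x Genomics 3′ kit. The authors made the matrices with Cell Ranger 7.0.1 on mm10, per the labels and methods, and deposited raw counts of UMIs per gene and called barcode. Here barcodes were kept if they had 200 to 5000 genes detected, with no more than 20% of UMIs mitochondrial. For each tissue 2000 variable genes, without the listed genes, gave 30 components and 20 neighbours. Leiden clusters at resolution 0.8 numbered 29 in synovium and 37 in lung (scikit-learn 1.9.0, igraph 0.11.9, leidenalg 0.10.2). Clusters were named from 19 sets of markers where at least 4 were 2-fold enriched and in 10% of cells. Doublets, scored with Scrublet in scanpy 1.11.5, were kept in the main values and removed in an alternative. UMIs were summed per library and lineage. Levels have exact Poisson intervals, ratios conditional binomial intervals and shares Clopper-Pearson intervals. The ratio interval was tested on simulated Poisson counts. These have counting error only, the model behind the interval, so the test cannot show how it covers spread between cells or animals. A count of 0 was read as up to 3 counts. Reads of 1 molecule share a UMI, and intervals cover counting error only. With 1 library per group no p-value was computed. The members and gene lists were chosen with earlier results of these data known, and the marker minimum was set after seeing the data. All members were to be named in every lineage. Values not given in a sentence are in the plot of ratios or within a stated range. From the other lists, up to 2 genes with the highest and 2 with the lowest ratio past 2-fold, with at least 100 UMIs, could be named in macrophages, fibroblasts, endothelium and T cells. Alternatives changed the limits on cells, doublets, depth, scaling, cell weights, the UMI minimum and the clustering.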

Additional observations from a re-analysis of the deposited data

Results flagged for a closer look

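Ratios of opposite sign in the same lineage of the 2 tissues, with counting intervals apart from 0 in both, were found for 4 genes. Tnf in T cells had a log2 ratio of -0.88 in synovium and 1.03 in lung, and in macrophages or monocytes -0.73 and 0.46. Ltb in macrophages or monocytes was at -2.29 in synovium and 1.51 in lung. Tnfrsf1a in T cells was at -1.05 in synovium and 0.69 in lung, and in fibroblasts at 0.97 in synovium and -1.03 in lung. The lung fibroblast ratio was -0.27 with no filter on cells. Macrophage markers in T cells summed to 1132 and 493 CPM in synovium and to 403 and 1603 CPM in lung. Their part in the T cell ratios of Tnf and Tnfrsf1a was not tested. Adam17 in fibroblasts was at -0.36 in synovium and 0.76 in lung. Over whole libraries Ltb was at -0.74 in synovium and 0.68 in lung, and Ripk1 at -0.78 and 0.24. With 1 library per group these differences between tissues were not tested.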

How the results depend on the processing

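No paired analysis was possible because each group is 1 library, and for the same reason no replicate could be left out. The sign of each called ratio was kept in every alternative that gave it. Members lower over the whole synovium numbered 1, against 3 with no filter on cells and 0 at a minimum of 50 UMIs. Higher pairs of member and lineage in synovium numbered 2, against 4 with no filter on cells, 1 at a minimum of 50 UMIs and 6 with each library clustered alone. Higher pairs in lung numbered 23, against 13 under stricter limits on cells and 15 at a minimum of 50 UMIs. Lower pairs in lung numbered 1, against 0 for cells of at least 1000 UMIs, 3 with cells weighted equally, 0 with each library clustered alone and 0 without lineages whose median was under 1000 UMIs, an alternative chosen after seeing the data. Pathway genes higher in the whole lung numbered 5, against 9 with median-of-ratios scaling. The cause of these moves was not tested, beyond the fewer pairs that a higher minimum or fewer cells leave. The TNF+ lung stroma held few UMIs per cell and synovium held few lymphotoxin alpha UMIs, which limited what could be compared there.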
